A study of Mus musculus with 20 samples.

Results

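The 9 genes described here make deoxynucleotides or set how much of them a cell holds: Rrm1, Rrm2, Rrm2b, Tyms, Tk1, Dck, Dut, Dtymk and Samhd1. They were taken by gene symbol from a table of 37561 genes, and all 9 had a row in each of the 28 deposited tables. The samples were spherical neural masses derived from the D3 mouse embryonic stem cell line (ESD3, strain 129s2/SvPas), which had been kept on mouse embryo fibroblast feeders with LIF and were then differentiated toward dopaminergic neurons. The Control line carried a virally delivered short hairpin RNA against luciferase and the HPRT knockdown line one against HPRT, the purine salvage enzyme, and both lines were sampled on 10 days, each day up to day 4 and then each even-numbered day to day 14. There was 1 library per line and day, 20 in all, made from the combined RNA of a time point as the methods state, whereas the labels speak of independently replicated cultures. Within a line the days are successive time points with no replicate of any day, and whether they came from separate cultures is not clear from these sources, so the p-values below measure only the spread between days. Day 6, which the study left out of its own pathway analysis as discrepant, was left out of the tests here and is described separately.

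Deoxynucleotides are the building blocks of DNA, and cells supply them by reduction of ribonucleotides and by salvage of deoxynucleosides. Ribonucleotide reductase does the former; it pairs the large subunit RRM1 with a small subunit, RRM2 in dividing cells or RRM2B, a p53-inducible form that serves repair and mitochondrial DNA in cells at rest. Most enzymes of the de novo route are known to rise as cells enter S phase and to be low in cells that have stopped dividing, as neurons do, whereas RRM2B and the phosphohydrolase SAMHD1, which breaks deoxynucleoside triphosphates down, are used outside S phase as well.

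The promoter window that RefSeq gives, 250 bases before to 50 bases after the transcription start in the build GRCm38.p6, was found for 8 of the 9 genes, all but Rrm2b. It was searched on both strands for the E2F-type motif TTTNNCGC, the CCAAT box and the cell cycle homology region motif TTTGAA; none of the matches in these genes overlapped another. The CCAAT box lay in the windows of 3 of the 8 genes (Rrm1, Rrm2 and Dtymk), against 37.4% of 32817 windows of the same length. TTTNNCGC lay in 1 of the 8 (Tyms; 5.2% of all windows) and TTTGAA in 1 of the 8 (Dck; 17.9% of all windows). The windows of the 4 genes that held a match and were lower in the knockdown line are shown, 5′ to 3′ on the strand of the gene, with the matched letters in capitals. They lie at chr7:102441445-102441744 (plus strand), chr12:24708004-24708303 (plus strand), chr5:30073576-30073875 (minus strand) and chr1:93801885-93802184 (minus strand).
Rrm1: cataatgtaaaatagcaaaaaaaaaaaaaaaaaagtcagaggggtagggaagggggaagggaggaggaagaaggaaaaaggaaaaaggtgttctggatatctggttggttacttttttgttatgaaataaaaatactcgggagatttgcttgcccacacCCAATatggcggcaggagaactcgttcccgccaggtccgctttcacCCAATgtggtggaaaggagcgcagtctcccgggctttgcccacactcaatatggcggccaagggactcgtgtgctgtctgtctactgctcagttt
Rrm2: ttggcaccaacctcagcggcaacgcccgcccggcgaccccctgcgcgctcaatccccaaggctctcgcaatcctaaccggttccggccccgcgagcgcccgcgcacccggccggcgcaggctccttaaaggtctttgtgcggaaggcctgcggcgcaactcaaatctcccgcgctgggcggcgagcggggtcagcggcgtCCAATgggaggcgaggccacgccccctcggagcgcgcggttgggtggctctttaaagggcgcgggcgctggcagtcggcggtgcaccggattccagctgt
Tyms: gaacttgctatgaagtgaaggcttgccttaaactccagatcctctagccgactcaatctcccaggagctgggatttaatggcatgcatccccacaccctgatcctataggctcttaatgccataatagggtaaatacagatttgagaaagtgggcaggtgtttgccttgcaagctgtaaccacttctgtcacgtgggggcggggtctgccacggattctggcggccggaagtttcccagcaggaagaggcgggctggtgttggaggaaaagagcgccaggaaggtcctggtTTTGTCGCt
Dtymk: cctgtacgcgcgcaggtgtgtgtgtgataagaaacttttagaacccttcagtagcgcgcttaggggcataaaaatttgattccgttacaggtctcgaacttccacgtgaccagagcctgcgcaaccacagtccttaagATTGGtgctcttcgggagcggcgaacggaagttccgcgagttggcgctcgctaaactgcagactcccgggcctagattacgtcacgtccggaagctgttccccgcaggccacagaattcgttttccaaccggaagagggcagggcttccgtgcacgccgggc
Counted from the transcription start, the CCAAT box of Rrm2 began at base -50 and those of Rrm1 at bases -91 and -45. In Dtymk the box was on the opposite strand, from base -112. The match in Tyms began at base 42, after the start, and the windows of Tk1, Dut and Samhd1 held none of these letters.

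Deposited values were log2 levels from which the mean of the 2 libraries in a table had been taken off, so each same-day table gives a log2 ratio, HPRT knockdown minus Control, in which a negative value is a lower level in the knockdown line. Levels of all 20 libraries were put on a common log2 scale and are given relative to the Control library of day 0. For Hprt and for Rrm2b, Tyms, Dck, Dut and Samhd1 the rounding of the values also gave back the reads, which are printed as reads divided by the size of the library (normalised reads); for Rrm1, Rrm2, Tk1 and Dtymk no whole reads were found, and only relative levels are given. Size factors of the libraries ranged from 0.8325 to 1.588, and the median ratio of all tested genes was between -0.0362 and 0.0291 on every day. Hprt (chromosome X:50341314-50374836, plus strand; gene positions here are those of GENCODE for NCBIM37, the mm9 build that the files use) had 537.6 to 886.0 normalised reads in the Control libraries, with a median of 671.0. It had 19.79 to 143.1 in the HPRT knockdown libraries, with a median of 36.81. The lines did not overlap, and the daily ratio of Hprt had a median of -4.21 over the 9 days tested and was highest on day 0 (-2.53).

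**Figure D1:**
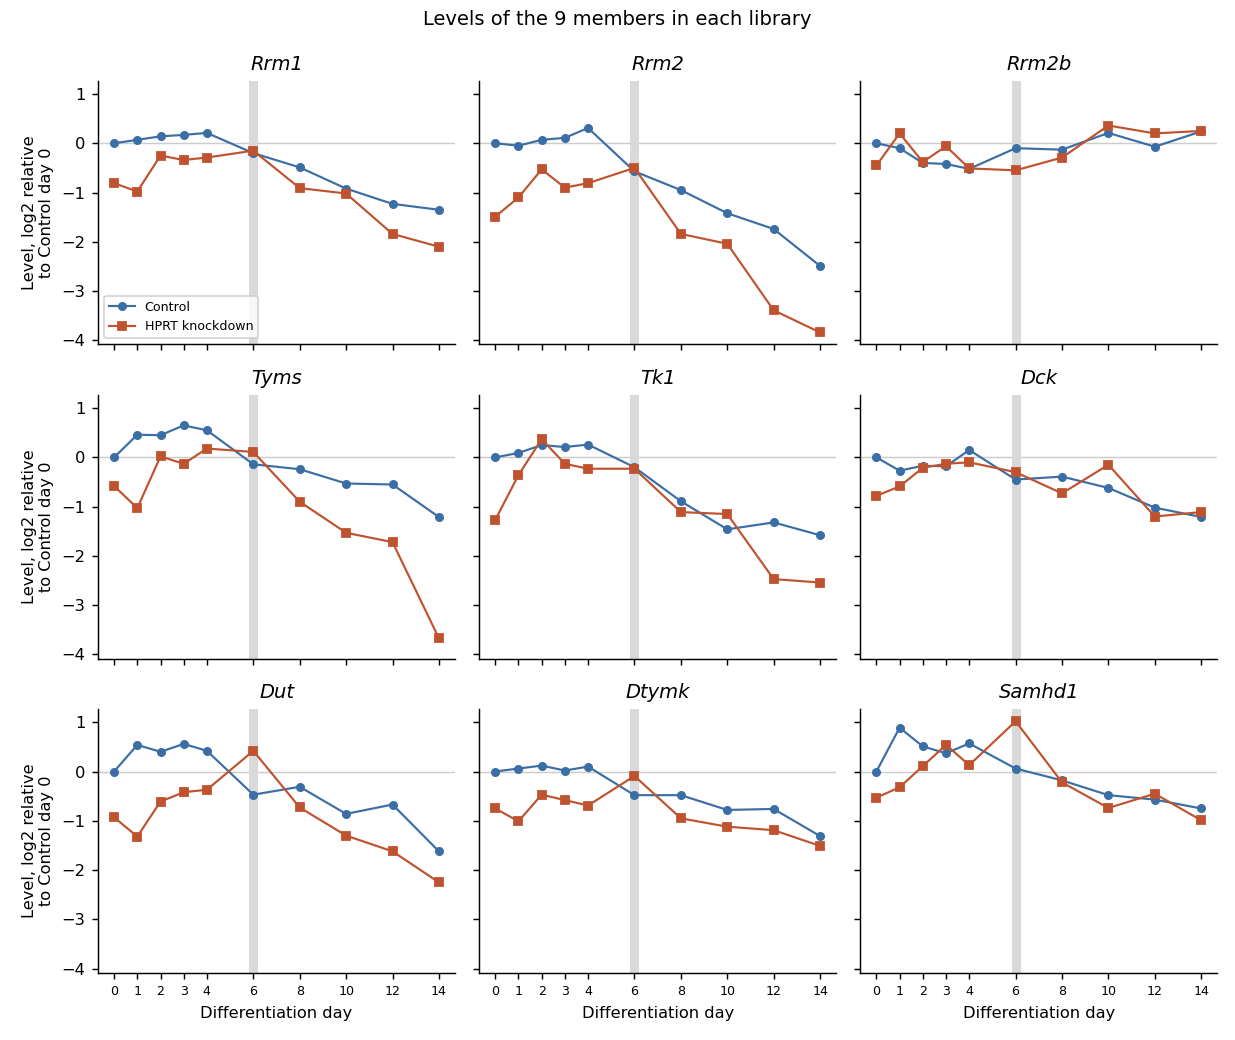
Level of each of the 9 genes (y axis, log2 relative to the Control library of day 0) by differentiation day (x axis), with 1 point per library, circles for Control and squares for HPRT knockdown, and a grey band at day 6. Rrm2 ended at -2.49 in Control and -3.84 in HPRT knockdown, whereas Rrm2b stayed between -0.55 and 0.36 in all 20 libraries.

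The first comparison asked whether transcripts for deoxynucleotide supply differed between the lines. Rrm2, Tyms, Dut, Dtymk, Rrm1 and Tk1 were lower in the HPRT knockdown line, in order of the mean ratio from -1.07 to -0.48. Rrm2b, Dck and Samhd1 did not pass the test, and none of the 9 was higher, as only Rrm2b had a mean above 0. The count was therefore 6 of 9 lower (limma on the ratios of 9 days, Benjamini-Hochberg adjusted over 12806 genes, threshold 0.05), where 26.2% of all genes tested were lower and 27.1% were higher. The median of the 9 mean ratios was -0.55, and that of all genes tested was 0.01. All 9 genes passed the filter on low values, about 16 normalised reads. The count depended on the pairing by day. With no pairing of the libraries of a day, 2 of the 9 (Dut and Dtymk) passed, while 5518 of all genes did against 6816 with it.

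Ribonucleotide reductase was lower in both of the subunits used in dividing cells. Rrm2 (chromosome 12:25393106-25399011, plus strand), the small subunit, had Control levels from -2.49 to 0.31 with a median of -0.31, and knockdown levels from -3.84 to -0.50 with a median of -1.30. The daily ratio was lowest on day 12 (-1.61) and highest on day 2 (-0.55), and its median was -1.11, so that the knockdown library was the lower of the pair on all 9 days. The mean ratio was -1.07 ± 0.38 (SD, n = 9 days), or 47.6% of Control, with a limma adjusted p of 0.000112 and an exact two-sided sign-flip p of 0.00390625, the smallest that 9 days can give. Rrm1 (chromosome 7:109590209-109618285, plus strand), the large subunit that binds the substrates and effectors, had Control levels from -1.35 to 0.21 and knockdown levels from -2.10 to -0.15. The ratio was lowest on day 1 (-1.10), close to 0 on day 10 (-0.04) and had a median of -0.49. It was below 0 on all 9 days, with a mean of -0.55 ± 0.31 (limma adjusted p = 0.0015).

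Rrm2b did not follow them. This gene (chromosome 15:37853707-37891073, minus strand) had 165.9 to 281.8 normalised reads in the Control libraries, with a median of 222.2, and 162.8 to 305.4 in the HPRT knockdown libraries, with a median of 211.5. The lines overlapped over nearly their whole range. Its ratio ran from -0.53 on day 0 to 0.41 on day 3, was above 0 on 7 of 9 days, and averaged 0.07 ± 0.28 (limma adjusted p = 0.552). The counting error of a single day's ratio of Rrm2b was 0.12 to 0.16 (standard error, log2, from the reads; it covers counting error only), so that the ratio of most days was within 2 such errors of 0.

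The 2 small subunits therefore differed from each other within the tables. In 4 pairs of genes, chosen with the values of the genes known, the difference of the ratios was tested over the 9 days with an exact two-sided sign-flip test and adjusted over the 4. Rrm2b exceeded Rrm2 by 1.14 ± 0.41 on the log2 scale, on 9 of 9 days (exact sign-flip adjusted p = 0.00781). Rrm2 was below Rrm1 by 0.52 ± 0.29 in mean ratio, again on 9 of 9 days (exact sign-flip adjusted p = 0.00781), although on day 1 the difference was only -0.01. The level of Rrm2b over that of Rrm2, set to 0 in the Control library of day 0, reached 2.73 in Control and 4.08 in HPRT knockdown by day 14. It was higher in the knockdown library on every day except day 6, where it was -0.04 against 0.47 in Control.

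**Figure D2:**
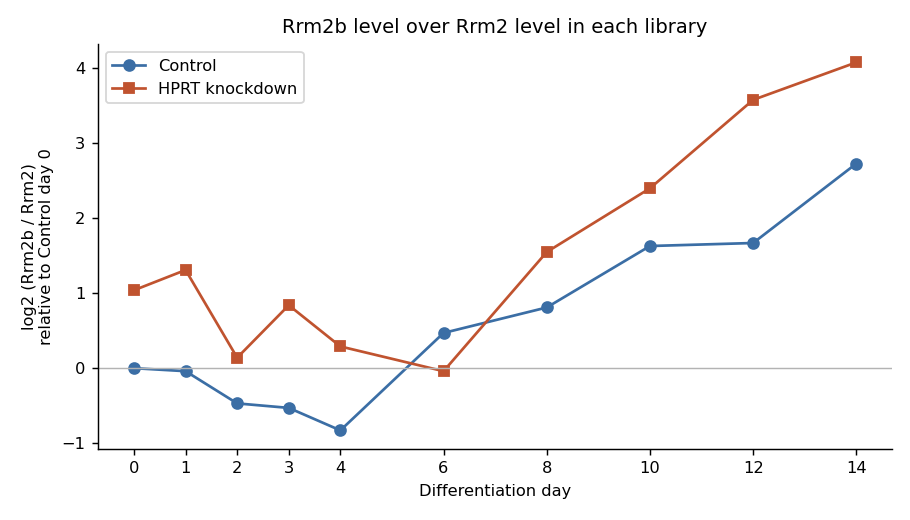
Level of Rrm2b divided by that of Rrm2 (y axis, log2 relative to the Control library of day 0) by differentiation day (x axis), with 1 point per library, circles for Control and squares for HPRT knockdown. The knockdown line lies above Control on 9 of 10 days and ends at 4.08 against 2.73, and the lines cross on day 6.

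The 3 genes that lead from dUTP to dTDP were lower as well. Tyms (chromosome 5:30384742-30400157, minus strand), thymidylate synthase, which methylates dUMP to dTMP, had 164.2 to 595.6 normalised reads in Control, with a median of 362.2, and 29.88 to 430.0 in HPRT knockdown, with a median of 229.1. The knockdown library was the lower on all 9 days, with ratios from -2.38 on day 14 to -0.37 on day 4. On day 14 the libraries had 164 and 30 normalised reads, and the counting error of that ratio was 0.29, larger than the 0.09 to 0.16 of the other days. The mean ratio was -0.98 ± 0.65, or 50.8% of Control (limma adjusted p = 0.00219), and without day 14 it was -0.80. Dut (chromosome 2:125072926-125084344, plus strand), the dUTPase that makes dUMP and keeps uracil out of DNA, had 335.7 to 1523 normalised reads in Control and 216.6 to 1377 in HPRT knockdown. The highest knockdown library was that of day 6, and on the other 9 days the knockdown library was the lower, and its ratio lay between -1.92 (day 1) and -0.39 (day 10). The mean was -0.87 ± 0.46, or 54.5% of Control (limma adjusted p = 0.000723). Dtymk (chromosome 1:95689153-95698511, minus strand), thymidylate kinase, which takes dTMP from both routes to dTDP, had Control levels from -1.31 to 0.12 and knockdown levels from -1.51 to -0.09. It too was lower on all 9 days, between -1.13 (day 1) and -0.12 (day 14), and averaged -0.56 ± 0.31 (limma adjusted p = 0.00131).

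The salvage kinases gave less. Tk1 (chromosome 11:117676840-117687406, minus strand), the cytosolic thymidine kinase of dividing cells, had Control levels from -1.58 to 0.26 with a median of -0.10, and knockdown levels from -2.54 to 0.37 with a median of -0.74. Its ratio was lowest on day 0 (-1.34) and highest on day 10 (0.37), and the knockdown library was the lower on 7 of 9 days. The mean was -0.48 ± 0.57 with a limma adjusted p of 0.0397. That call is fragile, since it held in 2 of the 9 fits that left out a day and missed without the filter on low values; its adjusted p ranged from 0.0155 to 0.336 over 15 alternatives. Tk1 overlaps Afmid, which is on the opposite strand, and 83 of its 5198 merged exon bases are also exon of Afmid. The strand of the reads is not given in the sources used here. Dck (chromosome 5:89194021-89212306, plus strand), the kinase that salvages deoxycytidine and purine deoxynucleosides, had 443.4 to 1137 normalised reads in Control, with a median of 813.8, and 446.4 to 953.8 in HPRT knockdown, with a median of 754.6. Its ratio changed side from day to day, between -0.85 (day 0) and 0.53 (day 10), was below 0 on 5 of 9 days, and averaged -0.13 ± 0.39 (limma adjusted p = 0.41). Dck exceeded Tk1 by 0.35 ± 0.43 in mean ratio (7 of 9 days, exact sign-flip adjusted p = 0.0469), a call that was lost when any of 7 of the 9 days was left out. Tyms was below Tk1 by 0.50 ± 0.71 in mean ratio, on 7 of 9 days, which did not pass (exact sign-flip adjusted p = 0.0742).

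Samhd1 (chromosome 2:156923265-156961001, minus strand), the triphosphohydrolase that lowers the pool, had 399.7 to 1240 normalised reads in Control, with a median of 683.8, and 337.0 to 1356 in HPRT knockdown, with a median of 557.5. The lines overlapped over most of that range. Its ratio was between -1.26 (day 1) and 0.22 (day 3), below 0 on 7 of 9 days, and averaged -0.30 ± 0.45 (limma adjusted p = 0.0992). Samhd1 is abundant in macrophages, whose markers were scarce here: of 11 markers 1 passed the filter, Tyrobp and Cx3cr1 were listed at 0 in every table, and Cd68 and Cd14 summed to 67 to 136 normalised reads in Control and 57 to 148 in HPRT knockdown. Of 20 interferon-stimulated genes, only 10 passed the filter on low values and were tested. Among those 10, 6 were higher in the knockdown line and 1, Bst2 (-0.82), was lower. Over all genes tested, 27.1% were higher and 26.2% were lower. The highest mean ratios were in Ifi44 (2.20 ± 1.86), Ifih1 (1.09 ± 0.48) and Ddx58 (1.04 ± 0.43). The values of Ifi44 did not fully agree across the deposited pairs of libraries. The part of either list in the ratio of Samhd1 was not tested.

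**Figure D3:**
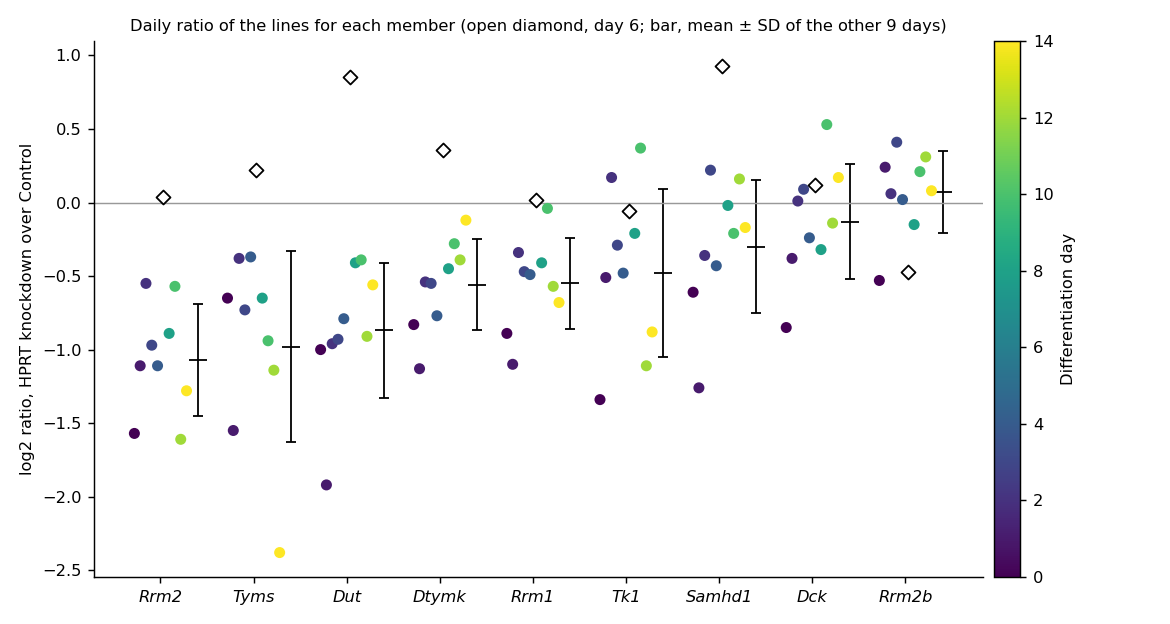
Log2 ratio of the lines on each day (y axis, HPRT knockdown over Control) for each of the 9 genes (x axis, ordered by mean), with points coloured by day, an open diamond for day 6, and a bar for the mean ± SD of the other 9 days. Rrm2, Tyms, Dut, Dtymk and Rrm1 lie below 0 on all 9 of those days, and their day 6 diamonds lie above 0.

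On day 6 the ratios of Samhd1, Dut, Dtymk, Tyms, Rrm1 and Rrm2 lay above those of all other 9 days. Those of Rrm2b, Tk1 and Dck lay within the range of their other days. On that day Samhd1 (0.93) and Dut (0.85) were higher in the knockdown library, Dtymk (0.36) and Tyms (0.22) were slightly higher, and Rrm1 (0.02) and Rrm2 (0.04) were level with Control. Rrm2b was at -0.47, with a counting error of 0.15, and had been at -0.53 on day 0. Only Rrm2b and Tk1 (-0.06) were below 0 on day 6, against 6 to 9 of the 9 genes on each other day. Between days 4 and 6 the level was lower on the later day for 8 of the 9 genes in Control, with a median step of -0.55, and for 3 of 9 in HPRT knockdown, with a median step of 0.16. For all genes tested the median step was -0.02 in Control and 0.01 in HPRT knockdown. Dut and Samhd1 had the largest steps up in HPRT knockdown, from 798 to 1377 and from 735 to 1356 normalised reads, beside 1384 to 747 and 995 to 697 in Control. The knockdown steps of Tyms (-0.06), Tk1 (0.02) and Rrm1 (0.16) were small. From day 6 to day 8, 7 of the 9 genes dropped by more than 1.5-fold in HPRT knockdown, where 15.5% of all genes tested did, and 1 of 9 did in Control, where 12.7% did. Other lists moved on day 6 as well. Of 27 S-phase genes, 24 were higher in the knockdown library that day, with a median ratio of 0.51, and of 18 p53 targets 14 were lower, with a median of -0.41, where 6450 of the 12806 genes tested were higher and 6353 lower, with a median of 0.00. There is no replicate of day 6, and the part of that library in these values was not tested.

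Genes that act around the 9 were more often lower than higher. Of 46 genes in 6 further lists of the pathway, 42 were tested, with a median mean ratio of -0.32. Among those, 21 were lower, 4 were higher and 17 did not pass, where 26.2% of all genes tested were lower and 27.1% higher. The de novo pyrimidine and folate genes were lower in 7 of 8, among them Shmt1 (-1.20), which makes the methylene folate that thymidylate synthase uses, Ctps (-0.77), CTP synthase, and Cad (-0.65), which starts pyrimidine synthesis. Enzymes listed for breakdown, conversion or cleaning of nucleotides were lower in 6 of 8. Uridine phosphorylase Upp1 (-1.54), dCTP pyrophosphatase Dctpp1 (-1.10) and dCMP deaminase Dctd (-0.99), which converts dCMP and does not clean the pool, were lowest. Nucleotide kinases were lower in 5 of 10, with Nme6 at -0.83 and Nme7 at -0.45. The mitochondrial salvage genes and carriers were mixed. Among those 6, the deoxyguanosine kinase Dguok (-0.49) was lower, and the mitochondrial deoxynucleotidase Nt5m (0.38) was higher. Of the 7 electron donors of the reductase, Txn2 (-0.89), mitochondrial thioredoxin, was lower, and the glutaredoxins Glrx (0.74) and Glrx2 (0.24) were higher. Of 3 nucleoside transporters tested, Slc29a1 (-0.64) was lower. In these last 3 lists, 1 of 6, 1 of 7 and 1 of 3 genes were lower, not far from the share over all genes.

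**Figure D4:**
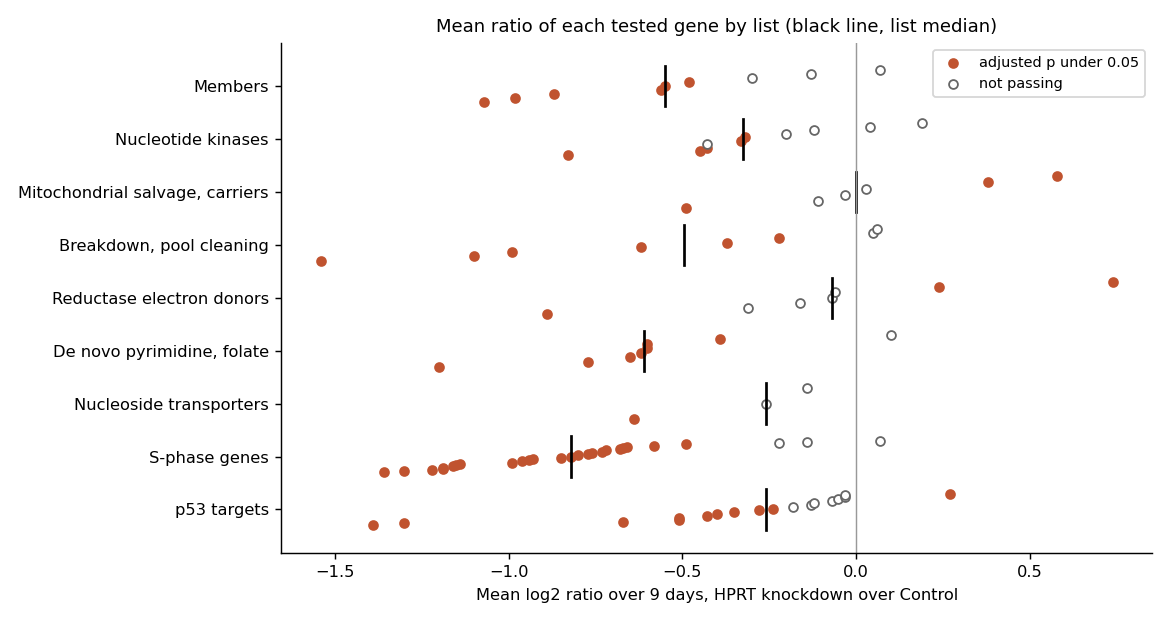
Mean log2 ratio of the lines over 9 days (x axis) for each gene tested, by list (y axis), with filled points for genes with an adjusted p under 0.05, open points for the rest and a black line at the list median. The medians are -0.55 for the 9 genes, -0.61 for de novo pyrimidine and folate genes, -0.82 for S-phase genes and 0.00 for mitochondrial salvage.

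Genes of S phase were lower on the same days. Of 27 S-phase genes 24 were lower and none was higher, with a median mean ratio of -0.82 and the lowest values in Mcm3 (-1.36), Ccne1 (-1.30) and Cdt1 (-1.22). By day, the median ratio of those genes was between -1.40 on day 1 and -0.52 on day 10, beside medians of -1.11 and -0.21 for the 9 genes on the same days. Of 18 p53 targets, 10 were lower, with Pmaip1 (-1.39), Gtse1 (-1.30) and Btg2 (-0.67) lowest, and 1 was higher, Sesn1 (0.27). The other 7 did not pass, among them Cdkn1a (-0.05), Mdm2 (-0.13) and Ccng1 (-0.03). Over all genes tested, 26.2% were lower and 27.1% were higher.

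Markers of several cell states also differed between the lines. Over all genes tested, 26.2% were lower and 27.1% were higher. All 8 pluripotency markers were lower in the knockdown line, with a median mean ratio of -2.79. Zfp42 (-3.43 ± 2.67), Tdgf1 (-3.38 ± 2.4) and Nanog (-2.84 ± 1.79) were lowest (mean ± SD over 9 days). The values of these 3 genes did not fully agree across the deposited pairs of libraries, and their reads were not recovered. The 2 with recovered reads, Esrrb and Utf1, summed to 890 to 3739 normalised reads in Control and 46 to 1746 in HPRT knockdown. Of 10 glial markers tested 6 were higher and none was lower, with S100b (3.63), Olig2 (3.02) and Olig1 (2.51) highest. Of 8 neuronal markers 4 were lower and none was higher, with Stmn2 (-2.01), Dcx (-1.99) and Tubb3 (-1.88) lowest. Neural progenitor markers were split, with Vim (0.91) and Sox2 (0.52) higher and Pax6 (-1.36) and Hes5 (-0.99) lower among 8. Of 10 fibroblast markers, which feeder cells would carry, 2 were lower, Lum (-1.07) and Postn (-0.70). The counts in the neural progenitor and fibroblast lists were not far from the share over all genes. Of 6 endothelial markers 3 were lower, Eng (-1.87), Pecam1 (-1.70) and Emcn (-1.15). In bulk RNA fewer cells of a type and less RNA per cell cannot be told apart, and the part of these differences in the ratios of the 9 genes was not tested.

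The second comparison asked how the genes changed through differentiation. In Control, all but Rrm2b fell: 8 of 9 had a negative slope that passed (limma on 9 days, adjusted over all genes), where 24.8% of all genes tested fell. Rrm2 fell by 0.191 per day on the log2 scale (SE 0.021, limma adjusted p = 0.000461), and the slopes of Tk1, Dut and Rrm1 were -0.149, -0.136 and -0.124. The slope of Dck was the nearest to 0 of those that passed, at -0.086 per day. Rrm2b had a slope of 0.036 per day that did not pass (limma adjusted p = 0.083). Most of the fall came after day 4, as the plot of levels by day shows; up to then Rrm2 lay between -0.05 and 0.31, and on day 14 it was at -2.49. Tyms, Dut and Samhd1 were highest between days 1 and 3 in Control, at 595.6, 1523 and 1240 normalised reads, and each had their lowest Control value on day 14.

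In HPRT knockdown the same direction was seen in 8 genes but fewer passed. Rrm2 (-0.203 per day, SE 0.037, limma adjusted p = 0.0132), Tyms (-0.189), Tk1 (-0.161) and Rrm1 (-0.105) fell, 4 of 9, where 5.86% of all genes tested fell. Dtymk (-0.056, limma adjusted p = 0.0512) and Dut (-0.088, limma adjusted p = 0.0815) did not pass, nor did Samhd1, Dck and Rrm2b. The knockdown count rested on single days, being 0 without day 12 or without day 14 and between 0 and 6 over the 9 fits. The knockdown levels of Rrm2, Dut and Tk1 were low on day 0 as well as at the end, at -1.49, -0.93 and -1.27.

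Whether the lines differed in slope is a test of its own, the slope of the daily ratio on day. Of the 9 genes, only Dtymk passed: its ratio rose by 0.051 per day (SE 0.014, limma adjusted p = 0.0414), from -0.83 on day 0 to -0.12 on day 14. The background was 7.96% of all genes tested with a rising ratio. That call held in 1 of the 9 fits that left out a day, and its adjusted p ranged from 0.026 to 0.201 over 14 alternatives. For the other 8 genes the slope of the ratio lay between -0.071 (Tyms) and 0.055 (Dut) per day, and none passed, so the larger number of falling genes in Control is not shown to be a difference in slope.

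Per kilobase of exon, the 5 genes with reads differed widely in normalised reads. The length used merged all annotated exons of a gene, 6089 bases for Tyms and 9154 for Samhd1. It can exceed that of the transcript, so the order of the genes below depends on the annotation. In Control the median was 387 normalised reads per kilobase for Dut, 264 for Dck, 74.7 for Samhd1, 59.5 for Tyms and 34.5 for Rrm2b. Neighbours in that order overlapped over the 10 days except for Dck and Samhd1, whose ranges were 144 to 369 and 43.7 to 136. In HPRT knockdown the medians were 242 for Dut and 245 for Dck, which did not differ beyond their ranges, then 60.9 for Samhd1, 37.6 for Tyms and 32.8 for Rrm2b.

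The genes most like a member in level over 18 libraries, both lines on 9 days, were found by Pearson's r among 12191 genes, given as a description since the libraries share their line and day. Gins2 (r = 0.988), Traip (0.985) and Pcna-ps2 (0.985), a pseudogene that may share reads with Pcna, were most like Rrm2. Rrm1 had r = 0.98 with Rrm2 and Rrm2b had -0.642. Rrm2b was most like Lrrn3 (0.912), Gng10 (0.881) and C1qtnf6 (0.866), and its r with each of the other 8 members was below 0, from -0.692 (Tyms) to -0.496 (Dck). Samhd1 was most like Ccnyl1 (0.94), Pitrm1 (0.939) and Ddx52 (0.933), and its r with Dut was 0.883.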

How the data were processed

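According to the methods, RNA of each time point was combined, ELAND aligned the reads to NCBI37/mm9, and Avadis NGS gave normalised gene counts; the submitters' processing notes name CASAVA 1.8.2 and DESeq. The lane of each library and the treatment of reads with several matches are not given in the sources used here. The authors deposited log2 values in 28 tables of 2 libraries each, centred on the mean of the pair, with 10 tables within a day and 9 per line between consecutive days.

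The 9 genes and all gene lists were chosen with earlier results of these data known. Tables of neighbouring days formed loops, of which 8 of 9 closed within 1e-05 for 91.762% to 93.417% of genes; the Control table of days 3 and 4 disagreed with the others (0.039% closed), by at most 0.138 for the members. Because rounding of the stored values depends on the level, it served as the filter: genes passed at a median of about 16 normalised reads (12806 genes; 7297 at a stricter 256). Values of some genes were whole multiples of 1 base of a 49-base read (within 0.1), and these reads were used as levels only, with no count model. Size factors stand in for the depth of each library, which the sources used here do not give.

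Daily ratios were tested with limma 3.58.1 in R 4.3.3 (intercept; slope on day) over 9 days without day 6, with Benjamini-Hochberg adjustment over all genes passing, and single genes with an exact two-sided sign-flip test. Trends within a line used levels added up over its consecutive-day tables. Libraries were paired by the day in the labels; their deviations from the line means correlated between 0.001 (day 0) and 0.516 across 11278 genes. Named genes were the 9 members, Hprt, up to 3 genes per direction of each list with the largest mean ratio among those passing, and the 3 genes most like Rrm2, Rrm2b and Samhd1; some genes that this rule names are not reported here. Scripts were tested on simulated data. Promoters came from RefSeq (GRCm38.p6) and gene positions and exon lengths from GENCODE (NCBIM37).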

Additional observations from a re-analysis of the deposited data

Results flagged for a closer look

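The ratio of Dtymk changed through the course, by 0.051 per day on the log2 scale (limma adjusted p = 0.0414), a difference between the lines in their slope on day that passed in 4 of 14 alternatives, 1 of them among the 9 fits that left out a day, with adjusted p from 0.026 to 0.201. Its ratio was -0.83 on day 0 and -0.12 on day 14. No daily ratio of a member or of Hprt stood far enough from its nearest neighbour to be singled out among the 10 days; the gap came closest for Dut, whose day 6 ratio was 0.85.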

How the results depend on the processing

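The members lower in the knockdown line numbered 5 to 6 when each day was left out in turn, and all genes called 6002 to 6936. Under the stricter filter 4197 of 7297 genes were called, since fewer genes were tested. The main fit pairs the libraries of a day. Without that replicate block 2 members passed and the call was lost for Rrm1, Rrm2, Tyms and Tk1, with adjusted p from 0.0643 to 0.336; the cause was not tested. The block changed no other call between the lines among the members. Over all alternatives, 129 single-member ratios kept their direction and side of the threshold, 13 were weaker and none reversed.

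For the slope of the ratio, 0 members passed with day 6 kept (1044 genes) or on log2(day + 1), and 0 to 1 members and 730 to 1727 genes when a day was left out. Slopes of the ratio near 0 turned for Rrm2 (0.032) and Tk1 (0.083) on log2(day + 1). With a day left out they ranged from -0.029 to 0.012 for Rrm2, from -0.04 to 0.02 for Tk1 and from -0.004 to 0.025 for Rrm2b. None of these passed.

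In Control, 8 to 9 members and 4448 to 6027 genes passed when a day was left out, 3541 genes passed under the stricter filter and 3775 on log2(day + 1). In HPRT knockdown, 1 member passed without a filter and 0 on log2(day + 1) (130 genes), and 0 to 6 members and 219 to 2904 genes when a day was left out. Putting all libraries on one scale, an alternative chosen after seeing the data, gave 5 members in HPRT knockdown and 8 in Control. The cause of these changes was not tested. A different pseudocount was not run because the deposited values are already logs. Among the 5 members with recovered reads, the lowest value was that of Tyms in HPRT knockdown on day 14, at 30 normalised reads; Tk1 and Rrm2b missed the stricter filter and were not tested under it.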
